A study of Mus musculus with 8 samples.

Results

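The insulin-like growth factor (IGF) genes described here are 10 genes of 54752 counted in the fetal mouse brain. They are the ligand gene Igf1, the receptor genes Igf1r and Insr, the adaptor genes Irs1 and Irs2, and the binding protein genes Igfbp2, Igfbp3, Igfbp4, Igfbp5 and Igfbpl1. They were taken by name as members of one signalling family, and the choice was made with earlier results of these data known. All 10 were present in the count tables, each in 1 row, and all 10 passed the filter on low counts.

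IGFs are secreted growth factors that act on receptor tyrosine kinases at the cell surface. The activated receptors phosphorylate the IRS adaptors, which carry the signal to the PI3K, AKT and mTOR kinases and keep FoxO transcription factors out of the nucleus. IGF binding proteins hold the ligand outside the cell and can either limit or prolong its action. In the developing brain this pathway is known for its role in the growth and survival of neural progenitors and neurons.

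The brains came from wild type fetuses at E15.5, of the strain C57BL/6 by the labels and C57BL/6Slac by the study's methods. In the stress group the pregnant dam was exposed to chronic unpredictable mild stress (CUMS), a daily change of mild stressors, and the dams of the control group were left without it. There were 4 control brains (F36, F37, M30 and M31) and 4 stress brains (F34, F35, M28 and M29), where F marks a female and M a male. Poly(A) RNA of each brain was sequenced as 1 library. The labels give the tissue as brain, and the study's sample table as a portion of the whole brain. By the study's sample table all 4 control brains came from 1 litter and all 4 stress brains from another, so that litter and condition cannot be told apart, and the p-values measure the spread between littermates. The total was between 25320109 and 29105710 counts per brain, and 17865 genes passed the filter. Each brain carried the RNA of its labelled sex, and neuronal markers such as Tubb3, Stmn2 and Map2 were abundant in all 8 brains. The choroid plexus marker Ttr, low in the other brains, stood at 29.9 CPM (counts scaled to the total of the library) in stress F34, and the summed meningeal markers were highest in stress M28, so that results without either brain are given where they differ.

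Per exon length, the binding protein genes had the highest means of all brains among the 10 genes, and the ligand gene the lowest. Levels are given here as RPKM, which divides CPM by the exon length in kilobases, as the mean of all 8 brains. Igfbpl1, a binding protein-like gene known for its expression in the embryonic forebrain, led at 111 RPKM ± 5.08 (SD, n = 8), above 98.5% of the genes tested. Igfbp2, a major binding protein of the fetal brain, followed at 49.7 RPKM ± 1.94, and Igfbp5, which binds IGFs with high affinity, at 30.3 RPKM ± 1.7. These 3 levels did not overlap each other in any brain. Igfbp4 at 12.2 RPKM ± 0.552, Igfbp3 at 10.2 RPKM ± 1.35 and Igf1r at 9.82 RPKM ± 0.387 came next, and each overlapped its neighbour in this order. In the stress brains alone the mean of Igf1r, 9.67 RPKM, was above that of Igfbp3, 9.03 RPKM. Insr at 7.86 RPKM ± 0.29 and Irs2 at 7.76 RPKM ± 0.43 also overlapped, between 7.37 and 8.11 RPKM for Insr and between 7.03 and 8.42 RPKM for Irs2. Irs1 stood lower at 2.36 RPKM ± 0.136, and Igf1 last at 1.06 RPKM ± 0.172, which was above 26.2% of the genes tested. Some 30.9% of the exon bases of Irs1 are shared with the gene Gm9747 on the other strand, which had 0 counts in every brain. The counts carry no strand, so that these 0 counts do not by themselves show that Gm9747 was silent. With the exon length cut to the unshared bases, the Irs1 level was 3.42 RPKM ± 0.196, with the same place in the order.

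**Figure D1:**
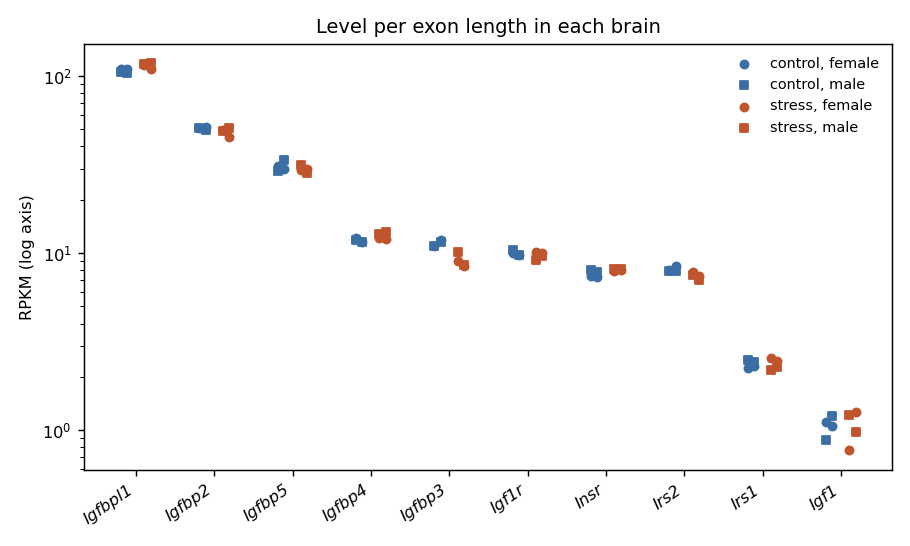
RPKM of each gene in each brain on a log axis, with control brains in blue and stress brains in orange, females as circles and males as squares (n = 8). Igfbpl1 lies between 104 and 118 RPKM in all brains and Igf1 between 0.768 and 1.26 RPKM.

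Among the 10 genes, 1 was higher and 2 were lower in the stress group. Igfbp3 and Irs2 fell and Igfbpl1 rose (edgeR's quasi-likelihood test, sex in the model, Benjamini-Hochberg adjusted p under 0.05 over 17865 genes). Over all genes tested, 6.49% were called higher and 7.27% lower, so that 1 and 2 of 10 are close to what those shares would give. The control and stress brains did not overlap for 2 of the 10 genes, against 16.4% of all genes. The median log2 fold change (Log2FC, stress vs. control) was -0.03 over the 10 genes and 0.0015 over all genes. At an unadjusted p under 0.05, 3 of the 10 were higher and 2 lower, and over all genes 2361 were higher and 2439 lower (26.9% in either direction). DESeq2 called 1 of the 10 higher and 1 lower, and over all genes 748 and 911. As each library is a whole mixture of cells, fewer cells of a type and less RNA per cell cannot be told apart for any gene below.

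**Figure D2:**
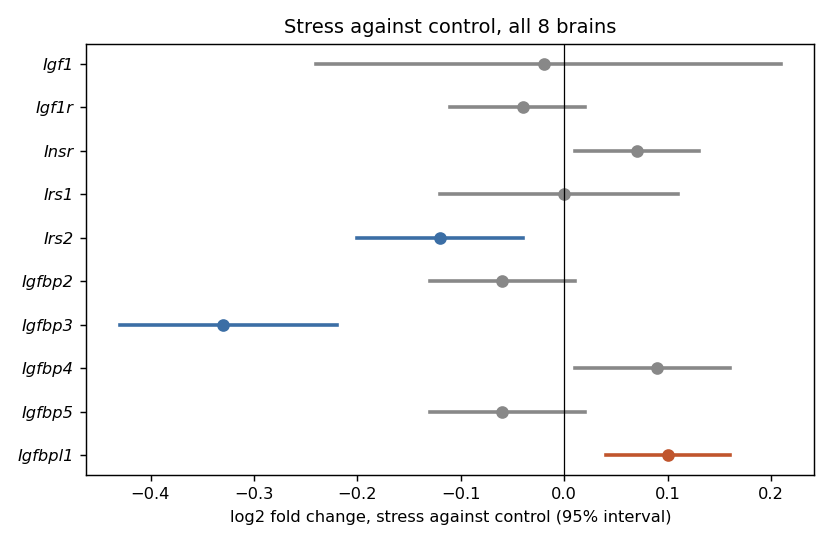
Log2FC (stress vs. control) of each gene over all 8 brains with its 95% interval, in blue where the gene was called lower, in orange where it was called higher and in grey otherwise. Igfbp3 lies furthest from 0, with an interval from -0.43 to -0.22.

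The ligand gene Igf1, which encodes the growth factor that gives the family its name, lies on the plus strand at chr10:87858265-87937042 (mm10). Its level was 11 and 10.5 CPM in the control females F36 and F37, and 8.71 and 11.8 CPM in the control males M30 and M31. In the stressed females F34 and F35 it was 7.6 and 12.4 CPM, and in the stressed males M28 and M29 it was 12 and 9.67 CPM. The stress brains covered the whole range of the control brains, with the lowest and the highest values both in stressed females. Igf1 was the least counted of the 10 genes, with 210 to 344 counts per brain, and its Log2FC of -0.02 had an interval from -0.24 to 0.21 (SE = 0.11, edgeR adjusted p = 0.951). The SD between the stress brains was 2.24 CPM on a mean of 10.4 CPM. The direction turned to 0.13 without stress F34.

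Of the receptors, Igf1r encodes the main signalling receptor for IGFs (plus strand, chr7:67952827-68233668), and Insr encodes the insulin receptor (minus strand, chr8:3122061-3279617). Igf1r stood at 168, 163, 174 and 164 CPM in control F36, F37, M30 and M31, and at 169, 167, 152 and 161 CPM in stress F34, F35, M28 and M29. Both stressed males were below every control brain and both stressed females were not. Its Log2FC was -0.04 over all brains (95% interval -0.11 to 0.02, edgeR adjusted p = 0.411), with -0.11 in males (adjusted p = 0.0762) and 0.02 in females (adjusted p = 0.841). The fit of each sex alone held 2 brains per group.

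Insr stood at 102, 101, 111 and 108 CPM in the same 4 control brains and at 109, 110, 111 and 111 CPM in the 4 stress brains. Stress values lay within a narrow range at the top of the control range and overlapped it. Insr had a Log2FC of 0.07 (95% interval 0.01 to 0.13), with an unadjusted p of 0.0284 and an adjusted p of 0.13 by edgeR. The ratio of Igf1r to Insr in RPKM was 1.25 to 1.34 in the control brains and 1.12 to 1.27 in the stress brains, a description with no test.

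Irs1 and Irs2 encode the adaptor proteins that dock on the activated receptors and recruit PI3K. Both lie on minus strands, Irs1 at chr1:82233101-82291416 and Irs2 at chr8:10984681-11008458. Irs2 stood at 51, 53.2, 50.2 and 49.9 CPM in control F36, F37, M30 and M31, and at 49.2, 46.9, 47.5 and 44.4 CPM in stress F34, F35, M28 and M29. Every stress brain was below every control brain (two-sided exact permutation p = 0.0286, the smallest that 4 against 4 can give). Irs2 fell from 51.1 CPM ± 1.51 (SD, n = 4) to 47 CPM ± 1.98 (n = 4), a change of -7.96% (Log2FC = -0.12, SE = 0.04, edgeR adjusted p = 0.0327). The Log2FC was -0.12 in females and -0.12 in males. The call was close to the threshold, as DESeq2 gave an adjusted p of 0.0773 and 3 of the 8 tests that left out 1 brain kept it. It was lost without control F37, M30 or M31 and without stress F35 or M29, with the highest adjusted p of 0.135 without stress M29.

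Irs1 stood at 20.4 and 21 CPM in the control females and at 23.2 and 22.6 CPM in the stressed females. In males it stood at 22.7 and 22.3 CPM in the control brains and at 19.9 and 20.6 CPM in the stress brains. Within each sex the groups did not overlap, and they lay in opposite directions, a pattern found for 4.69% of all genes tested. Over all 8 brains the means were 21.6 CPM ± 1.08 and 21.6 CPM ± 1.55, with a Log2FC of -0.00 (95% interval -0.12 to 0.11, edgeR adjusted p = 0.981). The effect in males minus that in females was -0.29 (SE = 0.10, unadjusted p = 0.00502, adjusted p = 0.542 by edgeR's interaction test) and did not pass the test. The ratio of Irs2 to Irs1 in RPKM was 3.19 to 3.66 in the control brains and 3.01 to 3.45 in the stress brains.

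The starts of Irs1 and Irs2 hold a stretch in common, which is shown because Irs2 was called and Irs1 was not. RefSeq sequence of build GRCm38.p6 was searched over 250 bases before and 50 bases after each start, on both strands. The windows are chr1:82291390-82291689 for Irs1 and chr8:11008880-11009179 for Irs2. The Irs2 window lies wholly upstream of the counted gene, which begins at 11008458 on the minus strand. Base positions are therefore counted from the RefSeq start. Both windows hold the E-box CACGTG, found in 7.15% of the 32851 windows of all genes, and TGTTTTG, letters known from insulin response sequences, found in 6.28%. The E-box also lies in a window of Igfbp2, from base -142 to base -137. These letters were searched after the windows had been read. The stretches run 5′ to 3′ on the minus strand, from base -121 to base -92 of Irs1 and from base -50 to base -21 of Irs2, and capitals mark both motifs, which overlap by their TG in Irs1.
Irs1: ctccgtCACGTGTTTTGctcctctggagtg
Irs2: cagagtCACGTGtTGTTTTGctcttagttc
The longest run of bases that the windows of Irs1 and Irs2 share has 10 bases and lies across this E-box. Irs1 holds a further TGTTTTG from base -32 to base -26. A match is a description of the letters and not of binding.

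The binding protein genes gave the largest difference of the family. Igfbp3 encodes the main carrier of IGFs in the blood and is also made by cells of many tissues. It lies on the minus strand at chr11:7206086-7213923, 3.54 kb from its neighbour Igfbp1. Its RefSeq window at chr11:7213874-7214173 (GRCm38.p6, minus strand) is shown since it belongs to the gene with the largest change. Capitals mark GCGGGAA, the letters of E2F sites, here on the opposite strand as TTCCCGC from base -130 to base -124, and TATATA from base -30 to base -25.
Igfbp3: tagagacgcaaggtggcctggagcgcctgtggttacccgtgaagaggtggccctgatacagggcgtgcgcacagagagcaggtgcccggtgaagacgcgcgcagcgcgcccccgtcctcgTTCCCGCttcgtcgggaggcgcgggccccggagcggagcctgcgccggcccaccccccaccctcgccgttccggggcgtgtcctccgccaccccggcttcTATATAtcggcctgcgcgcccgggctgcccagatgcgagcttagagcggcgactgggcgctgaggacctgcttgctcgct
GCGGGAA was present in 4.6% of all windows and TATATA in 5.67%, and TATATA was searched after the windows had been read. The FoxO letters GTAAACA, present in 3.65% of all windows, were in none of the 9 windows that 8 of the genes had, and only the letters of these windows were read. GTAAACA was the only form searched as FoxO letters. TGTTTTG, which the windows of Irs1 and Irs2 hold, was counted apart, so that other forms of FoxO site are not covered. GC made up 71.7% of the Igfbp3 window, against a median of 52.7% over all windows.

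Igfbp3 stood at 34.3 and 36.8 CPM in the control females F36 and F37, and at 34.6 and 36.1 CPM in the control males M30 and M31. It stood at 28.1 and 26.6 CPM in the stressed females F34 and F35, and at 31.6 and 26.7 CPM in the stressed males M28 and M29. All 4 stress brains were below all 4 control brains (two-sided exact permutation p = 0.0286), and the highest stress brain, M28, was still under the lowest control brain. Igfbp3 fell from 35.5 CPM ± 1.23 (SD, n = 4) to 28.3 CPM ± 2.37 (n = 4), by a Log2FC of -0.33 (SE = 0.05, 95% interval -0.43 to -0.22, edgeR adjusted p = 8.73e-05). This is a change of -20.3%, resting on 673 to 1045 counts per brain. Each sex was also fitted alone by edgeR, with only 2 littermates per group. The gene was lower in females (Log2FC = -0.38, SE = 0.07, adjusted p = 0.000778) and in males (Log2FC = -0.28, SE = 0.07, adjusted p = 0.00748). The difference between the sexes was 0.10 (SE = 0.10, adjusted p = 0.913 by edgeR's interaction test). All 8 tests without 1 brain called it lower, between -0.39 and -0.29.

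Igfbpl1, on the minus strand at chr4:45809468-45826923, was counted 8931 to 11065 times per brain. It stood at 354, 353, 346 and 338 CPM in control F36, F37, M30 and M31, and at 373, 353, 381 and 382 CPM in stress F34, F35, M28 and M29. Stress F35 lay within the control range and the other 3 stress brains above it (two-sided exact permutation p = 0.0571). Igfbpl1 rose from 348 CPM ± 7.35 (SD, n = 4) to 372 CPM ± 13.5 (n = 4), or by 7.04%, with a Log2FC of 0.10 (SE = 0.03, 95% interval 0.04 to 0.16, edgeR adjusted p = 0.0223). In males the Log2FC was 0.16 (SE = 0.03, adjusted p = 0.00361), and in females it was 0.04 (SE = 0.04, adjusted p = 0.677). These 2 fits by edgeR held 2 brains per group each. The difference between the sexes, 0.12, had an unadjusted p of 0.0261 and an adjusted p of 0.717 by edgeR. The call was kept in 3 of the 8 tests without 1 brain, with the highest adjusted p of 0.0893 without control M30. It was also lost without control M31 and without stress F34, M28 or M29.

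Igfbp2 and Igfbp5 are neighbours on chromosome 1, at chr1:72824503-72852474 on the plus strand and chr1:72857932-72874884 on the minus strand, with their ends 5.46 kb apart. Igfbp2 stood at 94.1, 95, 93.5 and 91.9 CPM in control F36, F37, M30 and M31, and at 91.3, 83.7, 90.7 and 93.7 CPM in stress F34, F35, M28 and M29. Stress F35 was the low value and stress M29 lay inside the control range. The Log2FC was -0.06 (95% interval -0.13 to 0.01, edgeR adjusted p = 0.267). Igfbp5 stood at 188, 180, 173 and 203 CPM in the control brains and at 177, 178, 188 and 171 CPM in the stress brains, which overlapped widely. Its Log2FC was -0.06 (95% interval -0.13 to 0.02, edgeR adjusted p = 0.343).

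Igfbp4, which encodes an inhibitory binding protein that the protease PAPP-A cleaves, lies on the plus strand at chr11:99041244-99054392. It stood at 54, 51.3, 52.1 and 51 CPM in the control brains and at 53.9, 53, 56.5 and 57.9 CPM in the stress brains. Both stressed males were above every control brain, and the stressed females were within the control range. Igfbp4 had a Log2FC of 0.09 (95% interval 0.01 to 0.16) with an unadjusted p of 0.0273 and an adjusted p of 0.126 by edgeR. Its window was the only one of the 9 with TATAAA, from base -28 to base -23, which 13.6% of all windows hold. TATAAA too was searched after the windows had been read.

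**Figure D3:**
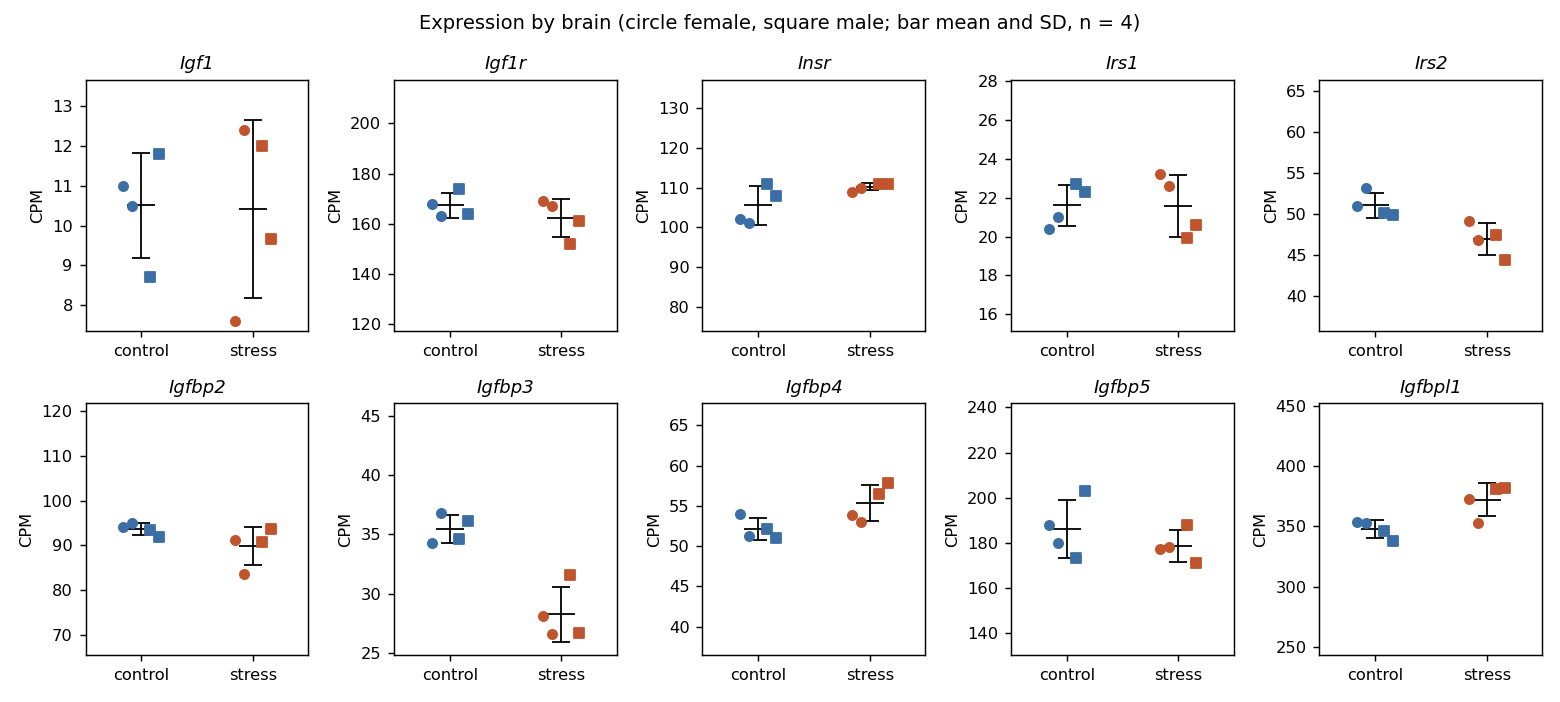
CPM of each gene in each brain, with control brains in blue and stress brains in orange, females as circles and males as squares, and bars for the mean and SD (n = 4 per group, each axis on its own range and not from 0). Igfbp3 is the gene with the widest gap between groups, from 34.3 CPM in the lowest control brain to 31.6 CPM in the highest stress brain.

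The summed level of the 8 IGF binding protein genes counted here, with Igfbp1, Igfbp6 and Igfbp7 added, was 224 to 229 RPKM in the control brains and 217 to 235 RPKM in the stress brains. Within this sum the share of Igfbpl1 was 46.4 to 47.7% in the control brains and 49.9 to 50.7% in the stress brains. The share of Igfbp3 was 4.78 to 5.17% against 3.68 to 4.31%, and that of Igfbp2 was 22.2 to 22.6% against 20.9 to 21.9%. Shares of these 3 genes did not overlap between the groups while the sum did, and neither did that of Igfbp7, at 5.97 to 6.69% against 5.72 to 5.88%. Igfbp4 made up 5.11 to 5.34% against 5.34 to 5.66%. Igfbp5 made up 12.9 to 15% against 12.3 to 13.7%, and overlapped. Shares add up to a fixed total and are given as a description with no test. By CPM, Igfbp2 and Igfbp7 overlapped between the groups and were not called (edgeR adjusted p = 0.267 and 0.307).

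Between the sexes, none of the 10 genes was called by edgeR or by DESeq2, and 1 of 10 had an unadjusted p under 0.05. Over all genes 0.0896% were called for sex by edgeR, and 5.91% had an unadjusted p under 0.05. None of the 10 was called for the interaction of sex and stress by edgeR or by DESeq2, against 0.00560% of all genes. At an unadjusted p under 0.05 for the interaction there were 3 of the 10, Igf1r, Irs1 and Igfbpl1, and 6.31% of all genes. These 3 genes are named because of their values. Igf1r had an interaction of -0.13 (SE = 0.06, edgeR adjusted p = 0.718).

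The rest of the pathway was read from 7 lists with 75 genes, of which 71 passed the filter on low counts. Of these, 4 were called higher (5.63%) and 3 lower (4.23%), with a median Log2FC of -0.00, and 8 had groups that did not overlap (11.3%). None of these shares was above that of all genes. Among the other ligands, carriers and proteases, 8 of 12 were tested and none was called by edgeR or DESeq2, with 1 at an unadjusted p under 0.05. Igf2, the fetal IGF, had only 13 to 23 counts per brain, and 64.5% of its exon bases are shared with other genes, so that its level is uncertain. Igfbp1 had 0 to 4 counts and Ins2 had 0 to 2, and neither was tested.

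At the receptor, 2 of 8 genes that restrain signalling were called higher and none lower, where 6.49% of all genes were called higher and 7.27% lower. These counts describe a short list and are not a test of it. Grb10, an imprinted gene whose product inhibits the insulin and IGF receptors, stood at 136, 133, 146 and 135 CPM in control F36, F37, M30 and M31, and at 154, 157, 148 and 157 CPM in stress F34, F35, M28 and M29. All stress brains were above all control brains, and Grb10 rose with a Log2FC of 0.16 (SE = 0.03, edgeR adjusted p = 0.00092). Ptpn1, which encodes the phosphatase PTP1B that acts on the insulin receptor, rose from 88.2 CPM ± 1.97 to 96.3 CPM ± 2.66 (n = 4 each, Log2FC = 0.13, edgeR adjusted p = 0.00508). The other 6 genes were not called, among them Socs2 and Socs3 with a Log2FC of -0.01 and -0.02, and the median of the list was -0.02. Grb14, also not called, went the opposite way to Grb10, with a Log2FC of -0.12 (edgeR unadjusted p = 0.0268, adjusted p = 0.125). The calls of Grb10 and Ptpn1 held in all 8 tests without 1 brain.

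Of 11 other receptors and adaptors, 1 was called, the adaptor gene Sh2b1, which fell from 110 CPM ± 2.93 to 103 CPM ± 3.85 (n = 4 each, Log2FC = -0.10, edgeR adjusted p = 0.0411). That call was kept in 2 of 8 tests without 1 brain, and DESeq2 gave an adjusted p of 0.0687. Of 14 genes of PI3K and AKT, the regulatory subunit gene Pik3r3 rose with a Log2FC of 0.11 (edgeR adjusted p = 0.00758), and the regulatory subunit gene Pik3r1 fell with -0.09 (adjusted p = 0.0491, kept in 1 of 8 tests without 1 brain). For Pik3r1, DESeq2 gave an adjusted p of 0.0795, and the highest edgeR adjusted p without 1 brain was 0.175, without stress M28. Pik3r1 stood at 137 CPM in stress F35, within the control range of 131 to 139 CPM. Some 24.3% of the exon bases of Pik3r3 are shared with Gm49337. No gene of the 14 of mTOR and translation was called by edgeR or DESeq2, and 2 had an unadjusted p under 0.05.

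Of 13 FoxO genes and genes that FoxO factors are known to induce, 1 fell and none rose, with a median Log2FC of 0.03. The one was Bcl6, which encodes a transcriptional repressor that promotes neurogenesis. It stood at 10.2, 11.8, 10.2 and 11.9 CPM in the control brains and at 8.15, 7.9, 8.26 and 6.56 CPM in the stress brains. No stress brain reached a control brain, and Bcl6 fell by a Log2FC of -0.52 (SE = 0.08, edgeR adjusted p = 0.000138), a change of -30.1%. Of 3 IGF2 mRNA-binding protein genes, Igf2bp1, known for its expression in neural progenitors, rose from 38.9 CPM ± 0.994 to 45.3 CPM ± 3.3 (n = 4 each, Log2FC = 0.22, edgeR adjusted p = 0.00114). Igf2bp2 had 0.10 and an adjusted p of 0.0671, and Igf2bp3 had 0.09 and an adjusted p of 0.238.

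**Figure D4:**
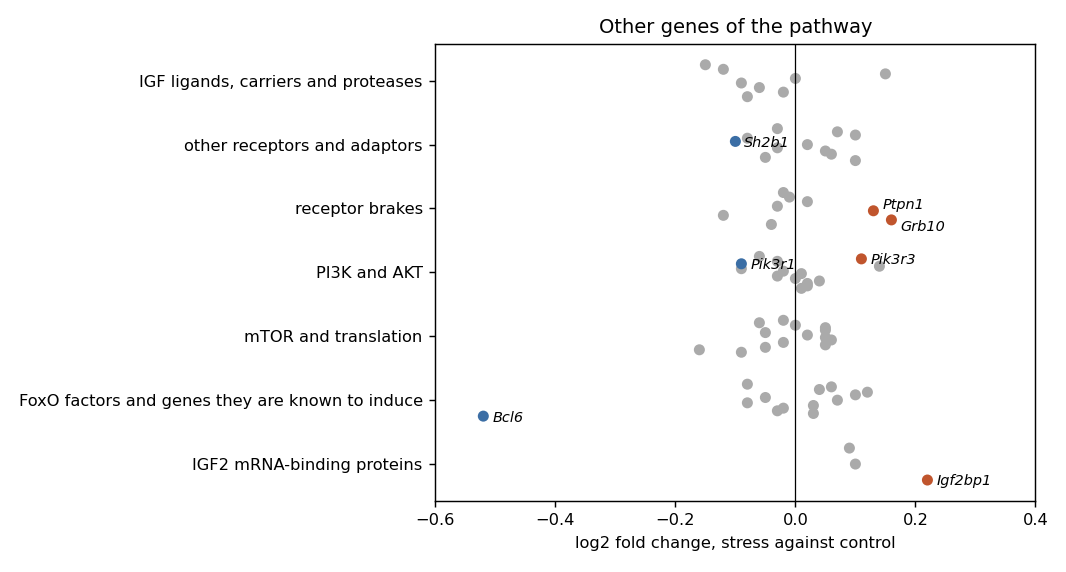
Log2FC (stress vs. control) of the 71 pathway genes tested, 1 point a gene, by list, with genes called higher in orange, genes called lower in blue and the rest in grey. Bcl6 at -0.52 and Igf2bp1 at 0.22 lie furthest from 0.

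Markers of several cell types differed between the groups beside these genes. Of 7 endothelial markers 4 were called lower and none higher, with a median Log2FC of -0.13, and their summed level was 169 to 185 CPM in the control brains and 151 to 162 CPM in the stress brains, without overlap. Flt1 and Kdr, receptor genes for VEGF, fell with a Log2FC of -0.41 and -0.29 (edgeR adjusted p = 2.19e-05 and 8.35e-05). The list did not fall as a whole. Tie1 went the other way, with a Log2FC of 0.14 (edgeR unadjusted p = 0.0118, adjusted p = 0.0713), and was not called. Igfbp3 was lower in the 4 stress brains too, and the part of endothelial cells in its change was not tested. Pericyte markers, with 5 tested and none called by edgeR, summed to 138 to 150 CPM against 139 to 148 CPM, and 1 of the 5 (Cspg4) had an unadjusted p under 0.05.

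Of 7 markers of intermediate progenitors and neuroblasts 5 were called higher, with a median of 0.18, and their sum was 394 to 422 CPM against 430 to 474 CPM. Eomes and Neurog2, transcription factor genes of neuron-producing progenitors, rose with a Log2FC of 0.25 and 0.24 (edgeR adjusted p = 8.4e-06 and 0.000169). Of 8 radial glia markers 4 were higher, with a sum of 1530 to 1620 CPM against 1560 to 1690 CPM. That list was split, as its other markers were not called and had a negative Log2FC, with a list median of 0.05. Of 8 neuronal markers 4 were lower, with a median of -0.06 and a sum of 5250 to 5420 CPM against 5080 to 5280 CPM. The neuroblast sum was above every control brain in all 4 stress brains, as Igf2bp1 was, while Igfbpl1 was above them in 3 of 4 and not in stress F35. The part of these cells in either change was not tested.

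Summed markers of the choroid plexus and the meninges were highest in single brains. The 7 choroid plexus markers summed to 2.96 to 11.7 CPM in the control brains and to 3.35 to 34.3 CPM in the stress brains, with 2 of 6 tested called higher and Kcnj13 at 0 or 1 count in each brain. Most of the highest choroid plexus sum, 34.3 CPM in stress F34, was Ttr alone at 29.9 CPM. The 6 meningeal markers summed to 16 to 29.1 CPM and to 20.7 to 63.3 CPM, with 3 of 5 tested called higher. Not every marker rose in either list. Log2FC ran from -0.37 to 1.91 in the choroid plexus list and from -0.10 to 1.59 in the meningeal list. Igfbp3 was called lower without stress F34 and without stress M28, the brains with the highest sums. Of 5 microglial markers none was called by edgeR or had an unadjusted p under 0.05, and of 5 erythroid markers 1 was lower.

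**Figure D5:**
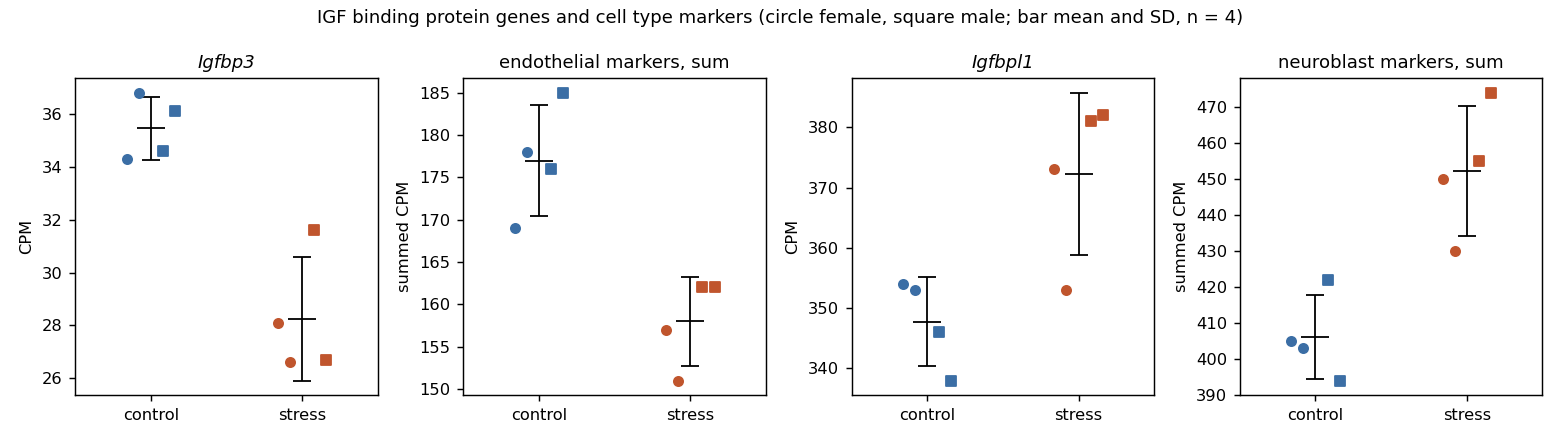
CPM of Igfbp3 beside the summed CPM of 7 endothelial markers, and CPM of Igfbpl1 beside the summed CPM of 7 neuroblast markers, by brain, with control in blue and stress in orange, females as circles and males as squares, and bars for the mean and SD (n = 4 per group, axes not from 0). The endothelial sum is 151 to 162 CPM in the stress brains and 169 to 185 CPM in the control brains.

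The genes whose pattern over the 8 brains was most like that of each called gene were found by the mean absolute difference in log2 CPM after centring. For Igfbp3, whose own range was 0.47, they were Myo1c at 0.037, Trmt9b at 0.038 and Dync1i1 at 0.038. For Igfbpl1, with a range of 0.18, they were Eci2 at 0.014, Cd2ap at 0.016 and H2afv at 0.016. For Irs2, with a range of 0.26, they were Pxn at 0.011, Anks6 at 0.012 and Smpd3 at 0.014. These values describe 8 libraries that share their groups.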

How the data were processed

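RNA-seq of 8 fetal brains was used, 4 control and 4 stress, 1 library each, grouped by their labels. The authors aligned paired reads to mm10 with TopHat2 2.1.1 and used featureCounts 1.6.3 to count them over the exons of GENCODE genes, and deposited the raw counts per gene, with no normalization. No strand option is given, so that reads of a gene and its antisense partner cannot be told apart. Of 54752 gene identifiers, 54723 were matched to a symbol.

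Genes were kept by filterByExpr of edgeR 4.0.16 (R 4.3.3, minimum count 10), scaled by TMM and tested with the quasi-likelihood test in a model of sex and condition. The SE is the log2 fold change divided by the square root of F, and intervals are 95%. RPKM used the exon bases of each gene. A gene was called at a Benjamini-Hochberg adjusted p under 0.05 over all genes. The scripts were tested on simulated data. The study's model also held batch, which its sample table does not name for these brains. Alternatives were DESeq2 1.42.0, other scalings, no filter, no sex covariate, each sex alone and each brain left out. The exon length of Irs1 without shared bases was added after seeing the data.

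The genes and lists were chosen with earlier results of these data known. All 10 genes are named, and of each pathway list the called genes, up to 3 of smallest p in each direction, and of each marker list up to 2. For the 3 genes of smallest p, the 3 genes of most similar centred log2 CPM (prior count 2) are named. Igf2, Igfbp1, Ins2, Socs2, Socs3, Igf2bp2, Igf2bp3 and Kcnj13 fall outside this rule, and so do Grb14, Tie1 and Cspg4. All of them were named after their values were seen, as examples of genes not called, and Igfbp7 for its share of a sum. Tubb3, Stmn2 and Map2 are named as markers of the tissue, also outside the rule. Promoter windows are those of RefSeq.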

Additional observations from a re-analysis of the deposited data

Results flagged for a closer look

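Irs1 differed in direction between the sexes. In the females it was higher in both stress brains than in both control brains, and in the males it was lower in both, and the effect in males minus that in females was -0.29 on the log2 scale (SE = 0.10). The difference was tested as an interaction of sex and stress with edgeR, with an unadjusted p of 0.00502 and an adjusted p of 0.542 over 17865 genes, so that it did not pass. No brain of the 20 groups of 4 (10 genes in 2 conditions) stood apart from its group.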

How the results depend on the processing

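Igfbp3 kept its direction and its call in all 8 tests without 1 brain and in all 7 other settings. Under DESeq2, 748 genes were higher over all genes, 1 of the 10 IGF genes was lower and 1 pathway gene was lower. Without the sex covariate, 0 of the 10 were higher and 1 was lower. With females alone, 295 genes were higher and 407 lower, 0 of the 10 were higher and 1 was lower, and 2 pathway genes were higher and 1 lower. With males alone, 664 genes were higher, 1 of the 10 was lower, and 0 pathway genes were higher. Without 1 brain, 736 to 1057 genes were higher and 854 to 1308 lower, 0 to 1 of the 10 were higher and 1 to 2 lower, and 4 to 6 pathway genes were higher and 1 to 4 lower. The direction turned for Igf1 in males (0.07) and between -0.14 and 0.13 without 1 brain, for Igf1r in females (0.02), and for Irs1 in females (0.15) and between -0.04 and 0.04 without 1 brain. Irs2 and Igfbpl1 lost their calls in 16 settings in all, with no change of direction. Of the tests without 1 brain, the one without stress M29 gave the lowest counts over all genes. Fits of 1 sex or without 1 brain hold fewer samples, and the cause of the other losses was not tested. The Irs1 level moved from 2.36 to 3.42 RPKM on unshared exon bases. Labels share no replicate numbers between groups. No paired analysis was possible because the groups share no numbers. With 4 brains of 1 litter per group, an effect of litter cannot be told apart from one of stress.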
